A study of Drosophila melanogaster with 13 samples.

Results

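The 8 core genes of the circadian clock of the fruit fly Drosophila melanogaster (Clk, cyc, per, tim, vri, Pdp1, cwo and cry) were followed through RNA-seq libraries of hand-picked brain neurons. They were taken by symbol from a count table of 17737 genes, and all 8 were found there. The question was which of them each library holds, and whether any single neuron or pool of neurons holds the full set. The libraries were 4 pools of GFP-labelled TRH-Gal4 neurons, 1 pool of GFP-labelled sNPFR-Gal4 neurons and 8 single sNPFR-Gal4 neurons, named here by the numbers in their labels. TRH-Gal4 is a driver named for tryptophan hydroxylase, the enzyme that starts serotonin synthesis in neurons, and the other driver takes its name from the short neuropeptide F receptor. Each label is only as narrow as its driver, so a pool can mix kinds of neurons. Pools held 15 to 60 cells, per the labels' protocols. The TRH brains were dissociated after protease digestion, while those with the other driver were pinned, so handling and driver cannot be told apart. The labels state no age, sex, light schedule or hour of collection, so no level below can be placed in the daily cycle.

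The clock is a transcriptional loop. CLK and CYC, a pair of basic helix-loop-helix proteins, switch on per and tim, and the PER and TIM proteins return to the nucleus and shut CLK and CYC off. A second loop runs through vri and Pdp1, whose bZIP proteins repress and activate Clk, and cwo adds a repressor that acts at the same E-box sites as CLK and CYC. CRY is the blue-light receptor that marks TIM for degradation. In the fly brain the loop is known from a small set of clock neurons, from glia and from photoreceptors, and transcripts of several members rise and fall over the day.

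Depth ran from 3380533 reads in cell 4 to 67958504 reads in cell 7, and cDNA had 12 cycles of amplification in pools against 17 in cells. Levels are given as CPM, the reads of a gene scaled to a fixed library total. PCR copies cannot be told from molecules, so limits from read counts cover counting error only. A gene is called present at 10 CPM or more. Trh, the gene behind the TRH driver's name, stood at 12310 to 17497 CPM in the TRH pools and at 0 to 0.256 CPM in the sNPFR libraries. The sNPF-R gene was at 139.7 CPM in the sNPFR pool, ranged from 0 to 2406 CPM in the cells, and lay at 21.9 to 145.6 CPM in the TRH pools. The neuronal genes elav, nSyb, brp, Syt1 and para summed to at least 6368 CPM in every library. Single genes of that list still dropped out: elav was at 1.37 CPM in the sNPFR pool, at 0.313 CPM in cell 10 and at 0 reads in cell 5, and brp was at 4.84 CPM in cell 10.

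No library held the full set. Over the 104 combinations of a member and a library, 52 had 0 reads, 10 had 1 to 3 reads, 10 had more than 3 reads but under 10 CPM, and 32 were at 10 CPM or more. TRH pools 60 and 57 held 5 of 8 members, where 32.1% and 32.0% of all genes were present. TRH pools 40 and 45 held 4, beside 28.9% and 29.9% of all genes, and the sNPFR pool held 2, beside 15.8%. Cells 1, 4, 6, 7 and 10 held 2 members each, beside 10.6%, 4.42%, 9.31%, 10.7% and 5.45% of all genes. Cells 2 and 5 held 1, beside 8.46% and 9.33%, and cell 3 held 0, beside 4.89%. The TRH pools, which held the most genes of any kind, also held the most clock genes at this limit. At 50 CPM that lead was gone, with 2 members in each TRH pool, in the sNPFR pool and in cells 6, 7 and 10. Across all 13 libraries together 7 members were present at least once. The exception was vri, which came closest in TRH pool 45 at 9.14 CPM. The TRH pools together held 6 members, all but tim and vri, and the cells together held 5, all but Clk, vri and cry. Other values near the limit were cry in TRH pool 57 at 7.90 CPM, and Pdp1 at 10.6 CPM in cell 5 and 8.53 CPM in cell 3. At a limit of 1 CPM, TRH pool 57 reached 7 of 8, without tim, and no cell passed 3. A pool sums several neurons, so members found together in a pool are not shown to share a cell.

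**Figure D1:**
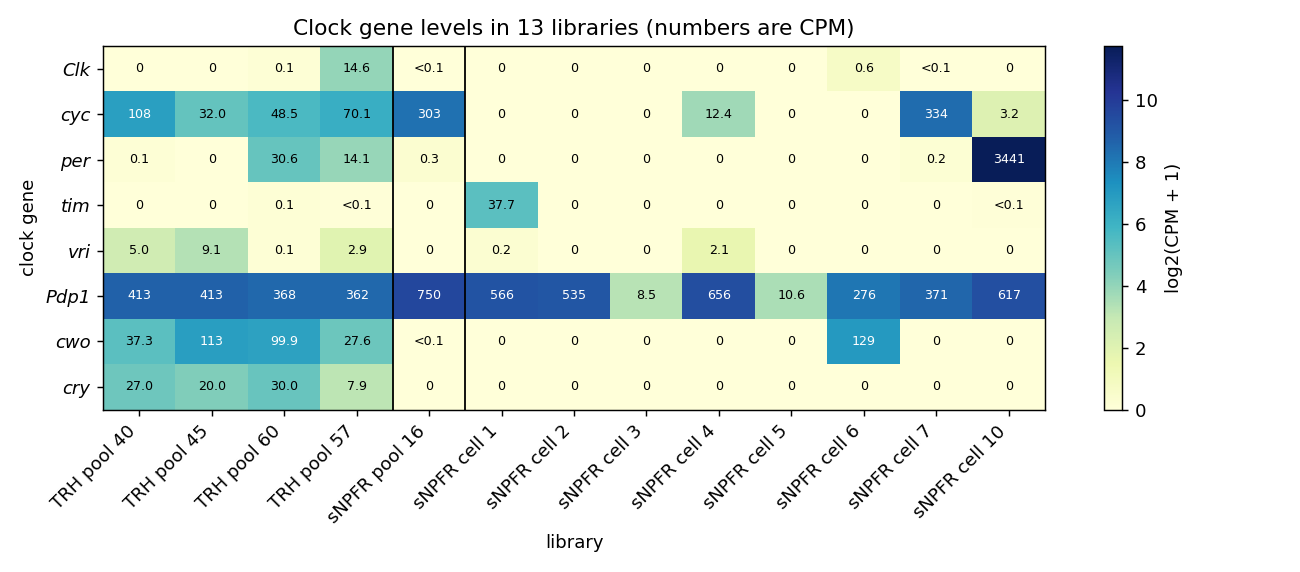
Level of each clock gene (rows) in each of 13 libraries (columns), as CPM written in the cell and coloured by log2(CPM + 1), with vertical lines between TRH pools, the sNPFR pool and the single cells. Pdp1 is filled in 12 of 13 columns at 10 CPM or more, while per reaches 3441 CPM in cell 10 and is at or near 0 in the other cells.

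**Figure D2:**
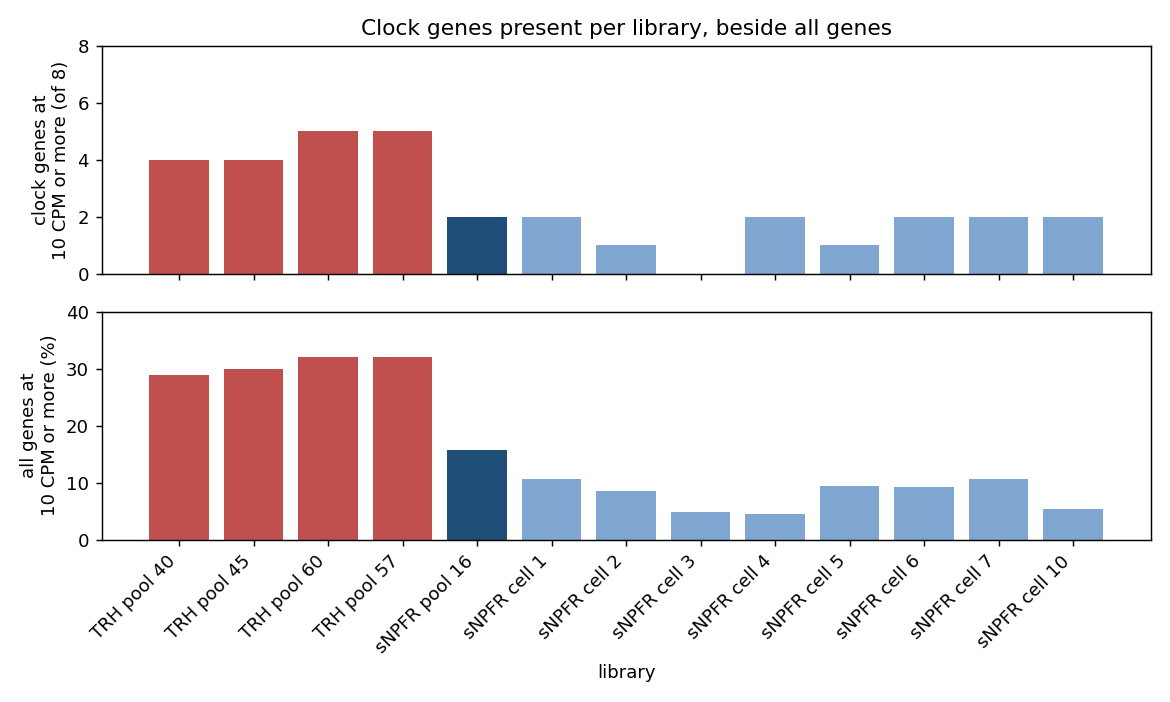
Number of the 8 clock genes at 10 CPM or more in each library (upper bars) and the percentage of all 17737 genes at that level (lower bars), with TRH pools in red, the sNPFR pool in dark blue and single cells in light blue. The TRH pools hold 4 or 5 clock genes and the cells 0 to 2, and the share of all genes falls from 28.9% or more to 10.7% or less between the same libraries.

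The partner genes of the loop were rarely found together. Clk and cyc, whose proteins work as a pair, were both present in 1 of 13 libraries, TRH pool 57, and in none of the 8 cells. In 6 libraries cyc was present and Clk was not. The pair per and tim was present together in no library: per was present in 3 and tim in 1. The pair vri and Pdp1 met in none, as vri was present nowhere. Both per and cry were present in TRH pool 60 only.

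Clk, an activator of the loop (FBgn0023076, chromosome 3L, 7763233 to 7775603, minus strand), was nearly absent. It stood at 0, 0, 0.104 and 14.6 CPM in TRH pools 40, 45, 60 and 57, at 1 read in the sNPFR pool and at 7 reads over all 8 cells, 5 of them in cell 6. The 228 reads of pool 57 were the one clear signal, and the other TRH pools had 0 or 1 read. The gene did not pass the filter on low counts and was not tested. In the same pool 57 Dh44, a peptide gene of neurons downstream of the clock, stood at 214.2 CPM, against at most 28.3 CPM in the other TRH pools. ITP, a peptide gene of a few clock neurons and of other cells, stood there at 203.7 CPM, against at most 23.1 CPM. Dh31, another peptide gene of the output list, went the other way, at 957.8 CPM in pool 45, which had 0 reads of Clk, and 8.74 CPM in pool 57. All 3 were chosen after their values were seen. Whether these transcripts share a cell with Clk was not tested.

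cyc, the partner of Clk (FBgn0023094, chromosome 3L, 19813770 to 19815938, minus strand), was common in pools and rare in cells. It stood at 108.4, 32.0, 48.5 and 70.1 CPM in TRH pools 40, 45, 60 and 57, and at 303.1 CPM in the sNPFR pool. Among the cells it reached 333.7 CPM in cell 7, 12.4 CPM in cell 4 and 3.23 CPM in cell 10, with 0 reads in the other 5. All 4 TRH pools lay below the sNPFR pool, and cell 7 was the one cell at the level of that pool. The mean of the TRH pools was 64.7 ± 33.0 CPM (SD, n = 4), and the sNPFR pool was 4.68 times that mean. Cell 7 gave 99.5% of the cyc reads of the cells: their sum was 176.5 CPM with it and 1.70 CPM without it.

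per, the first clock gene and a repressor of the loop (FBgn0003068, chromosome X, 2685580 to 2692780, plus strand), gave the highest single value of all members. In cell 10 it stood at 3441 CPM, from 66066 reads, and ranked 56th of all genes there. The other 7 cells had 0 reads, apart from 11 reads in cell 7, and the sNPFR pool had 15 reads. The TRH pools were split, with 30.6 CPM in pool 60, 14.1 CPM in pool 57, 0.115 CPM in pool 40 and 0 reads in pool 45. The cell with this per level had 1 read of tim, 0 reads of Clk, vri, cwo and cry, 3.23 CPM of cyc and 617.4 CPM of Pdp1. It also had the fewest genes present among the cells after cells 3 and 4, with 5.45% of all genes at 10 CPM or more. Single glia markers went both ways over the TRH pools. In pools 40, 45, 60 and 57, Eaat1 stood at 13.4, 12.0, 258.1 and 68.2 CPM. In the same order nrv2 stood at 7.11, 18.3, 218.7 and 81.3 CPM. Both were highest in pools 60 and 57, the pair of pools with per. Eaat2, at 427.6, 322.1, 358.6 and 196.3 CPM, and Gs2, at 62.9, 116.5, 60.7 and 0 CPM, did not follow that order. The sum of the 11 glia markers was highest in pool 60, at 906.0 CPM, and lowest in pool 57, at 352.9 CPM. It stood at 511.1 and 506.6 CPM in pools 40 and 45. Eaat2, a large part of that sum, also reached 1825 CPM in cell 6. The glial master regulator repo was at 3.24 CPM in pool 60 and at 0 reads in the other 3 pools, while the astrocyte gene alrm was at 19.0 CPM in pool 45 and at 0 reads in the other 3. The part of glia in the per reads was not tested.

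tim, the partner of per (FBgn0014396, chromosome 2L, 3493986 to 3508119, minus strand), was found in 1 cell. Cell 1 held 339 reads, or 37.7 CPM. The other libraries held 3 reads in all, 1 each in TRH pools 60 and 57 and in cell 10. Of the members, tim alone was at or near 0 in every pool, and it was not tested. In cell 1 per, Clk, cyc, cwo and cry had 0 reads, vri had 2 and Pdp1 stood at 566.1 CPM. That cell also held Arr1 and Arr2, arrestins of the photoreceptor list, at 13.5 and 30.0 CPM. ninaC, of the same list, had 9 reads there and 0 reads in every other library. The opsin genes ninaE, Rh3, Rh4, Rh5 and Rh6 had 0 reads in that cell.

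vri, the repressor of the second loop (FBgn0016076, chromosome 2L, 5288944 to 5311223, plus strand), was low throughout. It stood at 5.04, 9.14, 0.104 and 2.89 CPM in TRH pools 40, 45, 60 and 57. The sNPFR pool had 0 reads, and the cells had 9, of which 7 were in cell 4. All 4 TRH pools lay above both the sNPFR pool and the sum of the cells, although pool 60 did so by a single read.

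Pdp1, its activating counterpart (FBgn0016694, chromosome 3L, 7811458 to 7867369, minus strand), was the one member found in nearly every library. The TRH pools were close to each other at 412.7, 413.3, 367.9 and 361.7 CPM in pools 40, 45, 60 and 57, a mean of 388.9 ± 28.0 CPM (SD, n = 4) and a coefficient of variation of 7.19%. The sNPFR pool stood at 749.5 CPM. The cells fell into a high set of 6, from 276.1 CPM in cell 6 to 656.4 CPM in cell 4, and a low pair, cells 3 and 5, at 8.53 and 10.6 CPM. It was present in 7 of 8 cells (47.3% to 99.7% by the exact Clopper-Pearson method), a level that 1.77% of all genes reached in at least 7 cells. Among genes present in all 4 TRH pools, 7.86% did. Pdp1 also acts outside the clock, as in muscle, and the counts do not separate its 13 annotated transcripts.

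cwo, the repressor at E-boxes (FBgn0259938, chromosome 3R, 10388258 to 10400752, plus strand), was found in all TRH pools and in 1 cell. It stood at 37.3, 112.8, 99.9 and 27.6 CPM in TRH pools 40, 45, 60 and 57, with a mean of 69.4 ± 43.2 CPM (SD, n = 4). Cell 6 held 1012 reads, or 128.8 CPM, just above the highest TRH pool. The other 7 cells had 0 reads and the sNPFR pool had 1.

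cry, the light receptor (FBgn0025680, chromosome 3R, 19212154 to 19215442, plus strand), was found in the TRH pools only. It stood at 27.0, 20.0, 30.0 and 7.90 CPM in pools 40, 45, 60 and 57, with a mean of 21.2 ± 9.83 CPM (SD, n = 4). All 9 sNPFR libraries had 0 reads at these depths, so the groups did not overlap. The TRH mean was at least 397-fold higher than the limit that 0 reads allow in the sNPFR pool, 3 reads or 0.0535 CPM. Of 5787 genes with a mean of 10 CPM or more in the TRH pools, 16.1% likewise had 0 reads in all sNPFR libraries. Fewer expressing neurons in a pool and less RNA per neuron cannot be told apart here.

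Presence in exactly 1 of the 8 cells, as for per, tim and cwo, was common in these libraries. Of 4285 genes at 10 CPM or more in any cell, 42.8% were at that level in 1 cell only. For each of the 3 genes the exact Clopper-Pearson interval of the share of cells ran from 0.316% to 52.7%. Clk, vri and cry were present in 0 of 8 cells, which allows up to 36.9% by the same interval. These intervals, like that of Pdp1, take the cells as independent draws, which the labels do not establish. They cover the share of cells in which a gene was detected, and a transcript missed in a neuron counts as absent.

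**Figure D3:**
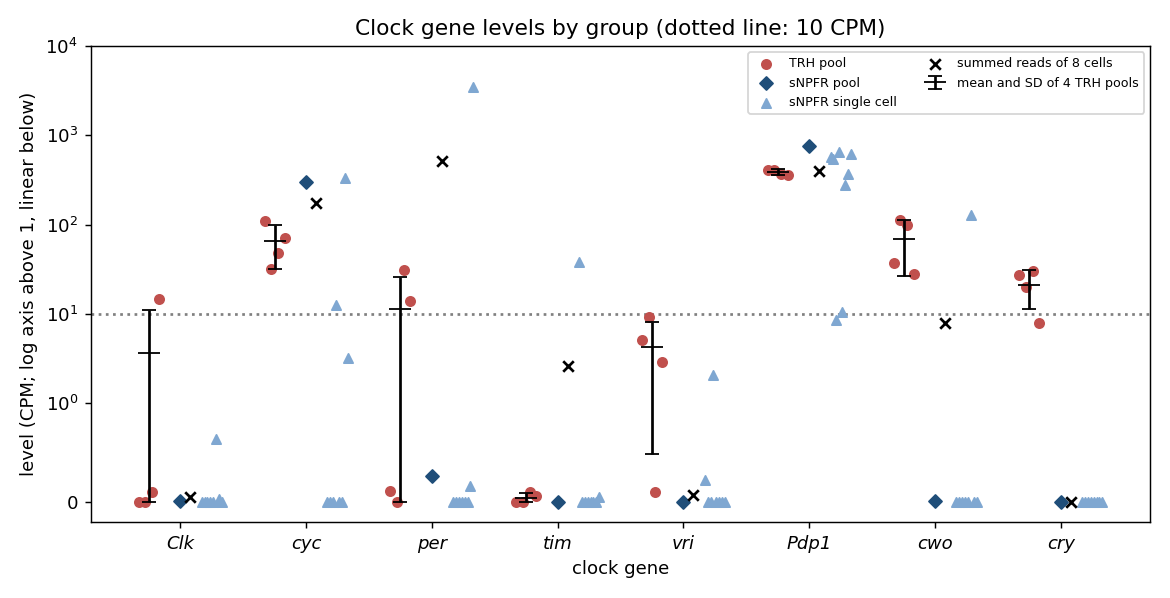
CPM of each clock gene on an axis that is logarithmic above 1 CPM and linear below, for TRH pools (circles), the sNPFR pool (diamonds) and single cells (triangles). Crosses give the summed reads of the cells, black bars the mean and SD of 4 TRH pools (cut at 0 where the SD exceeds the mean), and the dotted line 10 CPM. The TRH pools of Pdp1 lie together near 389 CPM, whereas per, tim, cwo and cyc have most cells at 0 and 1 or 2 cells above the line.

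Levels of different genes were compared per kilobase of exon. In the TRH pools cyc led with 39.8 ± 20.3 CPM per kb (SD, n = 4), followed by Pdp1 with 32.0 ± 2.30, cwo with 13.6 ± 8.48 and cry with 11.2 ± 5.18. The difference between cyc and Pdp1 was smaller than the SD of cyc, and that between cwo and cry smaller than the SD of either. Far lower were per with 2.47 ± 3.21, vri with 0.906 ± 0.804, Clk with 0.817 ± 1.62 and tim with 0.00599 ± 0.00730 CPM per kb. The lead of cyc over Pdp1 rests on the length used: with the longest transcript instead of all exons, Pdp1 stood at 56.7 CPM per kb. In the sNPFR pool cyc was at 186.5 and Pdp1 at 61.8 CPM per kb, and each other member was at 0.0590 or less.

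The 4 TRH pools were then compared with 2 sNPFR units, namely the pool and a sum over the 8 cells, since the labels tie no library to an animal. The p-values cover only the spread among these libraries, which may be technical. Log2 fold changes are TRH minus sNPFR and are read against a median of 0.67 over all tested genes. The value after their ± is an approximate standard error worked back from the test. Of 8 members, 6 passed the filter on low counts, 1 of these was called, higher in TRH, and 5 were not. The share of all 7426 tested genes called in either direction was 13.6%, split into 10.6% toward TRH and 3.03% toward sNPFR. The called member was cry (log2 fold change 12.18 ± 2.46, adjusted p = 0.0304, edgeR). Its fold change depends on the prior count, as the sNPFR side was at 0, and it passed the filter only through the group where it was found. The call was lost without TRH pool 45 (adjusted p = 0.0666, edgeR), pool 60 (0.0766) or pool 57 (0.0828), and in those settings the calls over all genes fell to 0.42%, 0.56% and 0.24%. With other settings the count of called members was 1 without the filter on low counts, where 7.42% of all genes were called, 3 with DESeq2 (40.9%), 4 with the sNPFR pool alone (31.1%) and 2 with the summed cells alone (22.8%). Without cell 1 or cell 6 it was 2, beside 16.6% and 16.3% of all genes.

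The other 5 tested members were not called. cyc was at -2.38 ± 0.68 (adjusted p = 0.0625, edgeR), with all TRH pools below both sNPFR units, and Pdp1 at -1.01 ± 0.35 (adjusted p = 0.105). For Pdp1 the sum of the cells, 394.4 CPM, lay within the range of the TRH pools, and the log2 fold change was -0.55 when libraries were scaled by their totals alone, a scaling that moved the median of all genes from 0.67 to 1.28. cwo was at 3.43 ± 2.21 (adjusted p = 0.305, edgeR), vri at 6.13 ± 3.25 (0.213) and per at -5.27 ± 2.77 (0.209). Single cells decided some of these values. Without cell 10 per turned to 5.47 (adjusted p = 0.300, edgeR; 0.0738 to 0.438 over its 20 alternatives). Without cell 6 cwo was at 12.20 (adjusted p = 0.0196; 0.00630 to 0.481 over its alternatives), and without cell 7 cyc was at -1.63 (adjusted p = 0.462; 0.00717 to 0.462). Taking out the cell that held nearly all reads of a gene all but fixes such a shift. Of the 6 tested members 3 had an unadjusted p under 0.05 (edgeR), against 33.3% of all genes. Between the TRH pools and both sNPFR units 4 members did not overlap, against 35.5% of all genes. In 3 of these, vri, cwo and cry, all TRH pools were above, as for 27.3% of all genes, and in cyc they were below, as for 8.11%. Single cells still crossed the TRH pools. cwo in cell 6, at 128.8 CPM, was above every TRH pool, and vri in cell 4, at 2.07 CPM, was above TRH pool 60. cyc had 0 reads in 5 cells.

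**Figure D4:**
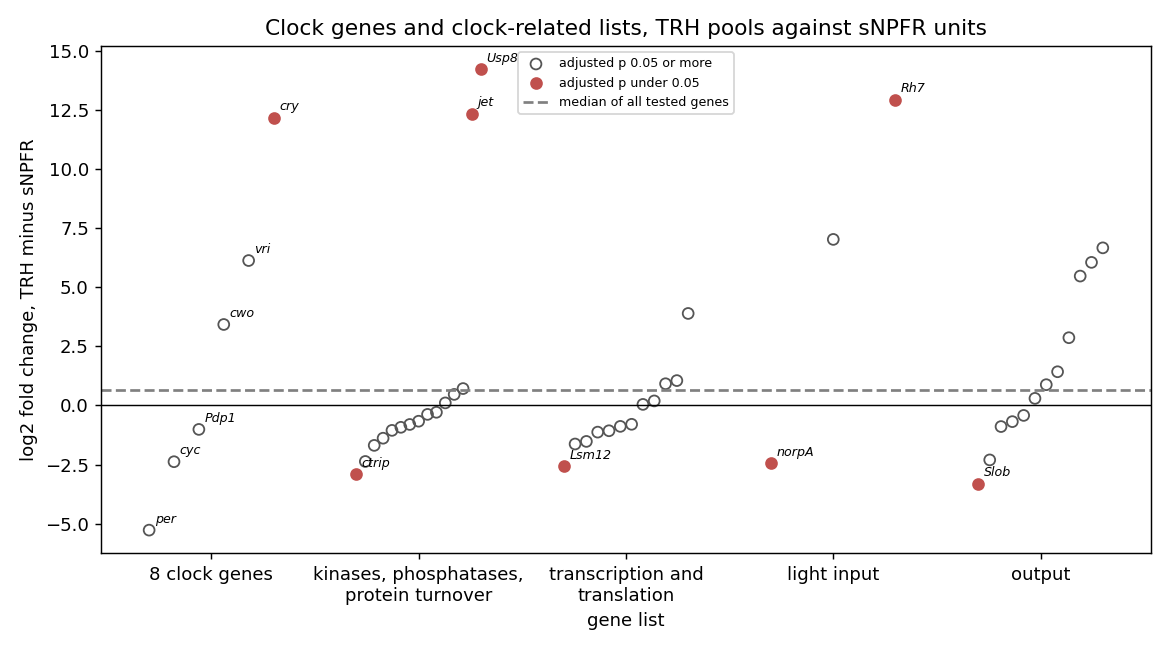
Log2 fold change (TRH pools minus sNPFR units) of each tested gene of the 8 clock genes and of 4 clock-related lists, filled where the adjusted p was under 0.05, with a dashed line at the median of all tested genes, 0.67. cry at 12.18 is the one filled point among the clock genes, and the related lists have 7 filled points, 3 above and 4 below 0.

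Around the core genes, 50 further clock-related genes were followed in 4 lists. Of these, 42 were tested, 3 were called higher in TRH, 4 were called higher in sNPFR and 35 were not called. That is 16.7% called against 13.6% over all genes, with a median log2 fold change of -0.40 against 0.67. Without TRH pool 45, 60 or 57 the count of called related genes fell to 0. At 10 CPM, 37 to 40 of the 50 were present in each TRH pool, 28 in the sNPFR pool and 11 to 21 in each cell.

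The kinases, phosphatases and protein turnover factors that time PER, TIM and CLK were present with 14 or 15 of 15 in each TRH pool and 2 to 9 in each cell. Of the 15, all tested, 2 were called higher in TRH, 1 higher in sNPFR and 12 were not called. dco, the casein kinase also called doubletime that phosphorylates PER, averaged 173.1 ± 40.9 CPM over the TRH pools (SD, n = 4), with 195.2 CPM in the sNPFR pool and from 0 to 198.5 CPM among cells. sgg, the kinase that phosphorylates TIM, had 741.7 ± 201.6 CPM, 450.5 CPM and 0 to 1216 CPM in the same groups. Neither was called (adjusted p = 0.762 and 0.879, edgeR). ctrip, a ubiquitin ligase that acts on CLK, averaged 158.2 ± 33.2 CPM over the TRH pools and had 891.3 CPM in the sNPFR pool. It was called higher in sNPFR, with a log2 fold change of -2.89 ± 0.37 (adjusted p = 0.0140, edgeR). It reached 5023 CPM in cell 10, the cell with the highest per, and was at 137.7 CPM in cell 5 and at most 1.34 CPM in the other 6. Without cell 10 the ctrip call was lost (adjusted p = 0.301, edgeR; 9.05e-12 to 0.301 over its 20 alternatives). Both genes called higher in TRH had 0 reads in all sNPFR libraries: Usp8, a ubiquitin protease that acts on CLK, at 87.7 ± 69.7 CPM (adjusted p = 0.0218, edgeR), and jet, the F-box protein that degrades TIM in the light, at 23.8 ± 18.4 CPM (0.0326). Like cry, both passed the filter only through the TRH pools, where they were found. Their TRH means were at least 1640-fold and 446-fold higher than the limit of 0 reads in the sNPFR pool. slmb, the F-box protein that binds phosphorylated PER, was present in cells 5 and 7, at 864.4 and 156.4 CPM, and Bdbt, a cofactor of the dco kinase, in cell 1 at 156.1 CPM. Neither was called.

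Of 13 genes that act on transcription and translation in the clock, 12 were tested, 1 was called higher in sNPFR and 11 were not called. The called gene was Lsm12, a partner of Atx2 and tyf in the translation of per (log2 fold change -2.55 ± 0.67, adjusted p = 0.0489, edgeR). Its TRH mean was 51.0 ± 13.5 CPM, against 196.7 CPM in the sNPFR pool, 1481 CPM in cell 10 and at most 3.45 CPM in any other cell. Without cell 10 its log2 fold change was -1.22 (adjusted p = 0.648, edgeR; 5.38e-05 to 0.648 over its 20 alternatives, 10 of which lost the call). tyf, which activates per translation, was at 334.4 CPM in cell 7 and 138.7 CPM in cell 6, and at 0.781 CPM in cell 10. Fmr1, an RNA-binding protein needed for rhythmic behaviour, stood at 2555 CPM in cell 4 and 787.2 CPM in cell 6, with 0 reads in the other cells and in the sNPFR pool. Mef2, a transcription factor of clock neurons and muscle, was at 663.8 CPM in cell 7, 282.6 CPM in cell 3 and 58.5 CPM in cell 6. None of these 3 was called.

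Of 5 light input genes 3 were tested, 1 was called in each direction and 1 was not called. Rh7, an opsin known from brain clock neurons, stood at 65.4, 13.4, 7.001 and 56.7 CPM in TRH pools 40, 45, 60 and 57, with 0 reads in all sNPFR libraries, as for cry (adjusted p = 0.0319, edgeR). It too passed the filter only through the TRH pools, and its call was lost without any 1 of the 4 (adjusted p = 0.0526 to 0.0873, edgeR; 6.24e-11 to 0.0873 over its 20 alternatives). Its mean of 35.6 ± 29.7 CPM was at least 666-fold higher than the limit of 0 reads in the sNPFR pool. norpA, a phospholipase C of phototransduction, averaged 376.6 ± 81.0 CPM over the TRH pools, with 1023 CPM in the sNPFR pool and up to 3348 CPM in cell 6. It was called higher in sNPFR, with a log2 fold change of -2.44 ± 0.39 (adjusted p = 0.0212, edgeR). With limma-voom the norpA call was lost (adjusted p = 0.560; 6.02e-05 to 0.560 over its 20 alternatives). It was present in 6 of 8 cells and had 0 reads in cells 3 and 4. Of 12 photoreceptor markers at most 2 were present in any library, 6 had 0 reads in all of them, and the opsin genes ninaE, Rh3, Rh4, Rh5 and Rh6 were at 0.104 CPM or less. The channel gene trpl was the one marker of that list to pass 100 CPM, at 634.0 CPM in cell 5.

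Of 17 output genes 12 were tested, 1 was called higher in sNPFR and 11 were not called. Pdf, the peptide that defines the ventral lateral clock neurons, had 0 reads in all 13 libraries, as did NPF, CCHa1 and to. Its receptor gene Pdfr was present in 6 of 8 cells, at 881.2 CPM in cell 5, 725.9 CPM in cell 2 and 350.1 CPM in cell 10. Pdfr averaged 27.5 ± 19.9 CPM over the TRH pools, had 4.83 CPM in the sNPFR pool and was not called (log2 fold change -2.30 ± 1.42, adjusted p = 0.284, edgeR). The called gene was Slob, a regulator of the slowpoke potassium channel, with a TRH mean of 174.0 ± 54.6 CPM, 771.3 CPM in the sNPFR pool and up to 2471 CPM in cell 7 (log2 fold change -3.31 ± 0.53, adjusted p = 0.0209, edgeR). With limma-voom the Slob call was lost (adjusted p = 0.604; 1.13e-05 to 0.604 over its 20 alternatives). The potassium channel gene Shaw was present in cells 1 and 2, at 1133 and 594.8 CPM, and was not called.

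The genes nearest to a member in level over the 13 libraries were ranked by the root mean square difference of log2(CPM + 1), for the 3 members present in at least 4 libraries. The nearest to cwo were pdm3, at 0.35, and Prosbeta2, at 0.37. Both were present in the 4 TRH pools and in cell 6, at 222.4 and 228.9 CPM in that cell, and at 0 reads in every other library. The nearest to cyc were SRm160, at 0.80, and qkr58E-1, at 1.03. In cell 7, where cyc was at 333.7 CPM, these were at 263.9 and 48.2 CPM, and cell 7 was the one cell in which either was present. The nearest to Pdp1 were hfp, at 1.41, and roh, at 1.62. All of these genes were picked for their likeness over the same libraries, so a shared pattern is no separate evidence of a link.

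Markers of other cells were read beside the clock genes. Of 11 glia markers 3 to 6 were present in each TRH pool, 4 in the sNPFR pool and 0 to 2 in each cell. Their summed level ranged from 352.9 to 906.0 CPM over the TRH pools, was 2020 CPM in the sNPFR pool and ranged from 2.96 to 1825 CPM over the cells. Eaat2 was above 100 CPM in all pools and in 6 cells. In cells 2, 3, 5 and 6 it was the whole of the sum, at 1543, 1067, 606.0 and 1825 CPM. The sNPFR pool held Eaat1 at 1105 CPM, alrm at 323.2 CPM and Gs2 at 160.8 CPM, with repo at 0 reads. TRH pool 60 held Eaat1 at 258.1 CPM and nrv2 at 218.7 CPM, TRH pool 45 held Gs2 at 116.5 CPM, and cell 1 held nrv2 at 129.7 CPM. Of the 11 markers, wrapper and Mdr65 had 0 reads in all libraries. Gat reached 15.8 CPM in TRH pool 45 and moody 7.07 CPM in TRH pool 57. The sNPFR pool, with the highest glia sum, had 0 reads of cry and 1 read of cwo, and was above every TRH pool for cyc and Pdp1. Of 8 hemocyte and fat body markers only Pxn passed 100 CPM, at 161.8 to 405.6 CPM in the TRH pools, and it had 0 reads in the sNPFR libraries. The part of such cells in the clock gene levels was not tested.

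Some members overlap annotated genes when whole gene spans, introns included, are compared. Reads in shared exon bases cannot be assigned to one gene, but whether the shared bases lie in exons was not checked. cry shares 9 bases with vib on the opposite strand, which reached 1048 CPM, and per shares 49 bases with dyw, which stayed at 4.91 CPM or less. Clk shares 1084 bases with CG32371, which had 0 reads in all libraries. tim, vri and cry also overlap noncoding genes, by up to 667 bases in tim. cyc, Pdp1 and cwo overlap no annotated gene.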

How the data were processed

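RNA was measured in 13 libraries made with the SMART-Seq v4 and Nextera XT kits, per the labels' protocols, and groups came from the sample titles. The table the authors deposited holds raw counts, whole reads for each of 17737 genes. STAR, edgeR and the BDGP6 build appear in the submitters' processing notes, without versions. No source used here gives the counting tool, the annotation release or whether strand was used. The kits mark no strand, so overlapping genes on opposite strands cannot be told apart. A deposited normalized table was not used, and 1 column that no sample title matches was left out. Coordinates and exon lengths come from Ensembl release 115 of BDGP6. Of the gene identifiers 17599 matched the reference names, and doubletime was found as dco.

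CPM used each library's total. Zero reads were taken to allow up to 3, and depth sets that limit at 0.0441 CPM in the deepest cell and 0.887 CPM in the shallowest. The 4 TRH pools were tested against the sNPFR pool and the summed cells with the quasi-likelihood test of edgeR 4.0.16, run in R 4.3.3 (TMM scaling, filterByExpr, Benjamini-Hochberg threshold 0.05 over all genes tested, 4 residual degrees of freedom). Cell 7 gave 52.7% of the summed cell reads. The test was run on simulated counts first. Alternatives were DESeq2 1.42.0, limma-voom (limma 3.58.1), other scalings, no filter, each sNPFR unit alone, cells weighted equally, each TRH pool or cell left out, and other limits for presence. Python 3.11.15 was used for levels and matplotlib 3.10.9 for figures.

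The members and lists were chosen with earlier results of these data known. Named genes were the members, Pdf, Pdfr, dco and sgg, up to 4 called genes per list, and list genes at 100 CPM or more in a cell with 0 reads in at least 4 others. The 2 genes nearest in level to a member, and markers of other cells at 100 CPM or more, were named too. Some named genes fall outside the rule and were chosen after their values were seen. These are Dh44, ITP, Dh31, wake, NPF, CCHa1, to, Arr1, Arr2, ninaC, moody, Gat, the markers at or near 0 and the overlapping genes.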

Additional observations from a re-analysis of the deposited data

Results flagged for a closer look

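Each value here lay apart from the rest of its group by Dixon's criterion on CPM, applied to the 4 TRH pools and the 8 cells for each named gene. Of 44 groups with any spread 17 were flagged, where chance gives about 1 in 20. The criterion marks any gene found in 1 cell and absent from the others, and 14 of the 17 were single cells.

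Among the clock genes, per stood at 3441 CPM in cell 10, cyc at 333.7 CPM in cell 7, cwo at 128.8 CPM in cell 6 and tim at 37.7 CPM in cell 1. Lower values also stood apart: Clk at 14.6 CPM in TRH pool 57 and 0.636 CPM in cell 6, and vri at 2.07 CPM in cell 4.

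Among the related genes, cell 10 held ctrip at 5023 CPM and Lsm12 at 1481 CPM. Cell 7 held Mef2 at 663.8 CPM, tyf at 334.4 CPM and dco at 198.5 CPM. Fmr1 stood at 2555 CPM in cell 4, slmb at 864.4 CPM in cell 5 and Bdbt at 156.1 CPM in cell 1. In the TRH pools the flagged values were low ones, dco at 112.2 CPM in pool 45 and Fmr1 at 134.2 CPM in pool 60.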

How the results depend on the processing

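No paired analysis was possible because the labels tie no library to an animal. The number of called clock genes was 1 with other scalings, without the filter, with limma-voom and with cells weighted equally. It was 3 with DESeq2 (40.9% of all genes called), adding cyc and vri, 4 with the sNPFR pool alone (31.1% of all genes), adding cyc, Pdp1 and cwo, and 2 with the summed cells alone (22.8%), adding cyc. The sNPFR side is then 1 sample, assumed to vary like the TRH pools. Leaving out single libraries gave 0 to 2 called clock genes and 0 to 8 called related genes, with 0 for both without TRH pools 45, 60 or 57. Unadjusted p stayed under 0.05 for cry there (0.00683, 0.00859 and 0.00643, edgeR). The 2 called clock genes arose without cell 1, adding cyc, or cell 6, adding cwo. The 7 called related genes became 5 with limma-voom, which lost norpA, Slob and Lsm12 and added wake, 12 with DESeq2 and 18 with either sNPFR unit alone. cry was called in 17 of 20 alternatives, with log2 fold changes from 11.12 to 13.07.

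The highest number of clock genes in a library fell from 5 to 2 at a limit of 50 CPM, in the TRH pools as over all libraries, and was 5 after thinning to the depth of the shallowest cell and 7 at 1 CPM or above 3 reads. Per length, Pdp1 moved from 32.0 to 56.7 CPM per kb with the longest transcript.

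Log2 fold changes that turned sign, none of them called, follow. With the sNPFR pool alone per was at 5.02, Mef2 at 0.55 and Pdfr at 2.22. With the cells alone Bdbt was at 0.44, sgg at -0.27, Fmr1 at -0.19 and Shaw at -0.23. With equal cells dco was at 0.37, tyf at 0.18 and Fmr1 at -0.57. dco was also at 0.0082 with RLE factors, 0.0084 with DESeq2 and 0.19 with library totals. Leaving out 1 library gave -6.37 to 5.47 for per (turned without cell 10), -0.40 to 0.36 for dco, -1.07 to 0.40 for tyf, -0.047 to 2.12 for Fmr1, -1.87 to 0.83 for Mef2 and -0.084 to 2.28 for Shaw (these 5 turned without cell 7), and -0.046 to 0.28 for sgg (turned without TRH pool 57, cell 1 or cell 2). The cause was not tested.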
